A study of Mus musculus with 12 samples.

Results

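The 10 genes described here encode serine proteases known from epithelia and the inhibitors that act on such enzymes. They were taken by symbol from a list that was set with earlier results of these data known. The genes are Tmprss2, Tmprss4, St14 and Prss8 (membrane-anchored proteases), Spint1 and Spint2 (Kunitz-type inhibitors), Serpinb5 and Serpina3n (serpins), and Plau and Plat (plasminogen activators). They are 10 of the 35896 genes in the summed tables, and all 10 were among the 12052 genes that passed the filter on low counts.

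Membrane-anchored serine proteases are made as inactive zymogens and, once cleaved, act at the cell surface on growth factor precursors, channels, receptors and matrix. In polarised epithelium matriptase (St14) and prostasin (Prss8) form a cascade that is held in check by the transmembrane inhibitors HAI-1 (Spint1) and HAI-2 (Spint2). The secreted activators urokinase (Plau) and tissue-type plasminogen activator (Plat) turn plasminogen into plasmin, a broad protease of fibrin and matrix, and are controlled by serpins. In the uterus these systems are known from the remodelling of epithelium and stroma under the ovarian hormones.

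The data come from 12 samples of whole uterus of wild-type Swiss Webster females, an outbred mouse stock, aged 8 to 12 weeks. There were 3 samples per stage of the estrous cycle: proestrus, estrus, metestrus or diestrus. No agent or allele was given to or carried by any group, and the stage of the cycle was the only stated difference. The labels do not say how the stage was determined, at what hour or in which batch a uterus was collected, or whether any uteri were pooled, so the p-values below measure only the spread between these samples. Polyadenylated RNA was read by 3' TagSeq, which counts fragments from near the 3' end of transcripts. Levels are in CPM, a gene's counts scaled to a common library size with TMM factors, and samples are named by stage and replicate number.

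The libraries held 1652841 to 2200563 estimated counts. A count of 0 allows up to 3 counts, which is 1.37 to 1.83 CPM in these libraries, and that limit covers counting error only. The uterine epithelium was present in every sample: the summed level of 12 epithelial markers (Epcam, Cdh1, keratins, claudins and others) lay between 744 and 2681 CPM. Metestrus replicate 7 stood apart in the proteases Prss28 and Prss29, which summed to 372 CPM there and to at most 2.46 CPM in the other 11 libraries. The other gland markers measured, Foxa2, Cxcl15 and Ttr, summed to 37.3 CPM in it, within the 9.10 to 75.6 CPM of the others. The F tests of Prss8, Tmprss2, Spint1, Serpina3n and Plat are given with and without this library. So are the ratios St14 to Spint1 and Prss8 to Spint2. Stratified squamous markers, which would come from vaginal or cervical epithelium, summed to 3.96 CPM at most, and Krt6a was at 0 in all libraries.

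Of the 10 genes, 5 differed over the 4 stages: Tmprss4, St14, Spint2, Serpinb5 and Plat (F test of edgeR's quasi-likelihood fit, with a p under 0.05 after Benjamini-Hochberg adjustment). Among all genes tested the same call was made for 23.2%. The 10 genes were chosen with earlier results of these data known, so values set beside all genes are descriptive here and below. Tmprss4, St14 and Spint2 were highest in estrus and lowest in diestrus, Serpinb5 was highest in proestrus, and Plat was high in metestrus and diestrus. Serpinb5 passed the filter on low counts only through its proestrus libraries. Prss8, Tmprss2, Spint1, Serpina3n and Plau did not pass the test. In whole tissue, fewer cells of a type and less RNA per cell cannot be told apart, and this holds for every value below.

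**Figure D1:**
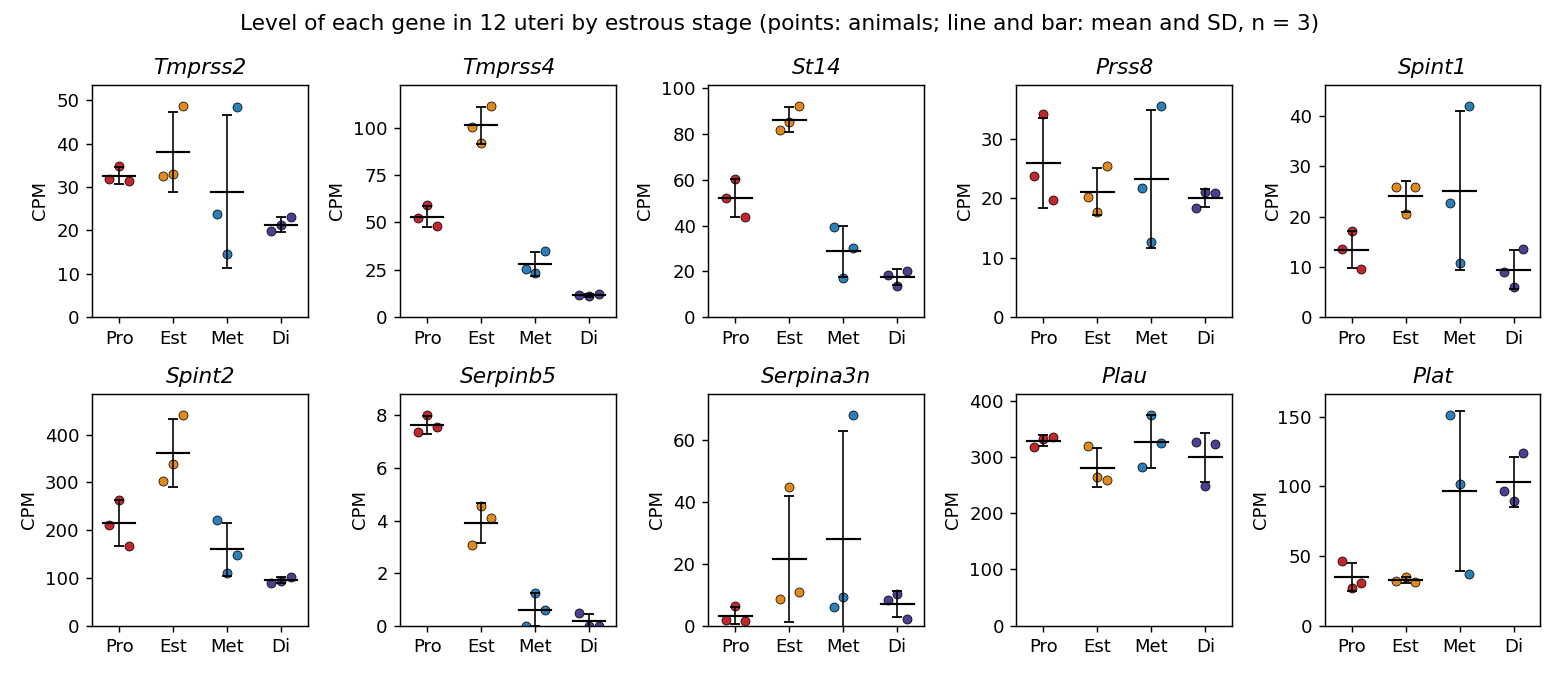
Level in CPM of each of the 10 genes (vertical axis, linear from 0, own scale per panel) in proestrus (Pro), estrus (Est), metestrus (Met) and diestrus (Di). Points are single samples and the line and bar are the mean and SD of 3. The title calls the points animals, but the labels do not say whether uteri were pooled. Tmprss4, St14 and Spint2 peak in estrus, where Tmprss4 reaches 111 CPM, and Plat reaches 151 CPM in metestrus.

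Tmprss4 (ENSMUSG00000032091, chromosome 9, 45172726 to 45204092, minus strand) encodes a transmembrane protease, and no stage overlapped another in its values. The share of all genes with such a separation is not given, here or for the genes below. Proestrus replicates 1, 2 and 3 held 52.1, 58.9 and 47.9 CPM, and estrus replicates 3, 4 and 5 held 100.1, 92.0 and 111 CPM. Metestrus replicates 5, 6 and 7 held 25.2, 23.2 and 34.9 CPM, and diestrus replicates 3, 4 and 5 held 11.4, 10.8 and 12.4 CPM. The order from high to low was estrus, proestrus, metestrus, diestrus. The F test gave an adjusted p of 2.625e-06 (edgeR). From proestrus to estrus the level rose by 0.94 ± 0.16 on the log2 scale (SE; adjusted p = 0.001941), and from estrus to metestrus it fell by 1.86 ± 0.17 (adjusted p = 0.0001097). Diestrus was 8.77-fold below estrus, a log2 difference of -3.13 ± 0.18 (edgeR adjusted p = 6.278e-07). The step from metestrus to diestrus, a log2 difference of -1.27 ± 0.20 (adjusted p = 0.01935), was no longer called with limma-voom, with counts scaled from TPM, without any of diestrus replicates 3, 4 and 5, or with these stages fitted alone. The difference of metestrus from proestrus, -0.93 ± 0.17 (adjusted p = 0.01186), was not called without proestrus replicate 2 (adjusted p = 0.0641) and with these stages fitted alone.

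Almost all Tmprss4 counts, 97.9%, were assigned to the transcript Tmprss4-205, which is annotated as subject to nonsense-mediated decay, and 1.83% to the coding transcript Tmprss4-201. The last 500 bases of Tmprss4-205 hold 470 stretches of 31 bases, and 100% of them are also in Tmprss4-201. Reads from the 3' end therefore do not separate these forms, and only the sum over the gene is used. An antisense gene, Gm17099, overlaps 15.9% of the Tmprss4 exon bases and was not analysed here, so reads from it, if any, cannot be told apart from those of Tmprss4.

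St14 (ENSMUSG00000031995, chromosome 9, 31089402 to 31131853, minus strand) encodes matriptase, an activator of prostasin and of the hepatocyte growth factor precursor. Its levels were 52.1, 60.5 and 43.8 CPM in proestrus replicates 1 to 3 and 81.7, 85.2 and 92.3 CPM in estrus replicates 3 to 5. They were 39.1, 16.9 and 30.2 CPM in metestrus replicates 5 to 7 and 18.3, 13.7 and 20.2 CPM in diestrus replicates 3 to 5. All estrus samples lay above all others and all proestrus samples above metestrus and diestrus, while metestrus and diestrus overlapped. The F test gave an adjusted p of 0.0001331, and diestrus was 4.97-fold below estrus, a log2 difference of -2.31 ± 0.25 (edgeR adjusted p = 4.981e-05). The fall from estrus to metestrus was -1.57 ± 0.23 on the log2 scale (adjusted p = 0.001726). The rise from proestrus to estrus, 0.73 ± 0.22 (adjusted p = 0.03754), lost its call in 9 of 20 alternatives, among them each fit without a proestrus or an estrus sample. Diestrus against metestrus (-0.74 ± 0.26, adjusted p = 0.2845) and metestrus against proestrus (-0.84 ± 0.24, adjusted p = 0.065) did not pass.

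Prss8 (ENSMUSG00000030800, chromosome 7, 127925716 to 127930104, minus strand) encodes prostasin, a glycosylphosphatidylinositol-anchored protease that activates the epithelial sodium channel. Proestrus replicates 1 to 3 held 23.8, 34.2 and 19.6 CPM, estrus replicates 3 to 5 20.3, 17.6 and 25.5 CPM, metestrus replicates 5 to 7 21.6, 12.5 and 35.5 CPM, and diestrus replicates 3 to 5 18.3, 21.1 and 20.8 CPM. The ranges of all stages overlapped, and metestrus alone spanned the values of the 3 other stages. No stage effect was called (edgeR F test, adjusted p = 0.7612, and 0.4159 without metestrus replicate 7), and each of the 6 differences between stages lay within 0.37 on the log2 scale, with an SE of 0.31 to 0.32. Prss8 shares 4.90% of its 31-base stretches with Kat8, the gene on the opposite strand that covers 6.59% of its exon bases, and its level is uncertain for that reason.

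Tmprss2 (ENSMUSG00000000385, chromosome 16, 97564682 to 97611195, minus strand), a transmembrane protease also known for cleaving viral envelope proteins, held 31.7, 34.8 and 31.2 CPM in proestrus replicates 1 to 3. Estrus replicates 3 to 5 held 32.6, 32.9 and 48.6 CPM. Metestrus replicates 5 to 7 held 23.7, 14.4 and 48.5 CPM, and diestrus replicates 3 to 5 held 19.8, 21.1 and 23.0 CPM. All diestrus samples lay below all proestrus and estrus samples, and the metestrus samples spread over the whole range. The F test did not pass with all libraries (adjusted p = 0.2304) and passed without metestrus replicate 7 (adjusted p = 0.01636). The difference of diestrus from estrus was -0.85 ± 0.32 on the log2 scale (edgeR adjusted p = 0.07497). It was called in 5 of 21 alternatives, among them without metestrus replicate 6 (0.02938) or 7 (0.01285). Without metestrus replicate 7 the fall from estrus to metestrus was called too, at -0.96 (adjusted p = 0.03486).

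The Kunitz-type inhibitors are encoded by Spint2 (ENSMUSG00000074227, chromosome 7, 29256323 to 29281912, minus strand) and Spint1 (ENSMUSG00000027315, chromosome 2, 119237362 to 119249527, plus strand). Their proteins inhibit matriptase and prostasin and belong to 1 family, and the 250 bases before their RefSeq start sites are shown because both act on the same proteases and are set side by side below. The sequences are from RefSeq on GRCm38.p6, 5' to 3' on the strand of the gene, for Spint2 chr7:29281978-29282227 (minus) and for Spint1 chr2:119237110-119237359 (plus). Capitals mark matches to the GC box, GGGCGG on either strand.
Spint2: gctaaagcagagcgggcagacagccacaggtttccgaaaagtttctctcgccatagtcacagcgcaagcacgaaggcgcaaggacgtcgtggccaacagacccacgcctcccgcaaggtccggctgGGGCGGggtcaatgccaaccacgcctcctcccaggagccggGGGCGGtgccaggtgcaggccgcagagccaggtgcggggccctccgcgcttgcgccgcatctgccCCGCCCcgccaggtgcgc
Spint1: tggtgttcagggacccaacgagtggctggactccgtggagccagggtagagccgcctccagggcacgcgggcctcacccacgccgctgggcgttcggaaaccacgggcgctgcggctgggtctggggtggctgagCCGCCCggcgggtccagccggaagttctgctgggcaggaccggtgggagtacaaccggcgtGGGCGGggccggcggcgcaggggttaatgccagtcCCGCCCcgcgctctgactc
Each window holds 3 GC boxes, which 32.7% of 32851 RefSeq windows of that length hold at least once. The GC content is 69.6% for Spint2 and 72.8% for Spint1, against a median of 52.4% over all windows. Neither window holds the AP-1 motif TGANTCA, the palindromic estrogen response element or TATAAA on either strand, which are found in 6.75%, 0.0639% and 12.4% of all windows. These are matches of letters and not measured sites.

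Spint2 held 211, 264 and 168 CPM in proestrus replicates 1 to 3 and 303, 338 and 442 CPM in estrus replicates 3 to 5. Metestrus replicates 5 to 7 held 220, 110 and 148 CPM, and diestrus replicates 3 to 5 held 90.1, 93.7 and 102 CPM. Every estrus sample exceeded every other sample and every diestrus sample lay below every other one, while proestrus and metestrus overlapped. The F test gave an adjusted p of 0.0005735 (edgeR). Diestrus was 3.80-fold below estrus (log2 -1.92 ± 0.24, adjusted p = 0.0001358) and below proestrus as well (log2 of proestrus over diestrus 1.17 ± 0.24, adjusted p = 0.007831). The rise from proestrus to estrus, 0.76 ± 0.23 (edgeR adjusted p = 0.03871), lost its call in 9 of 20 alternatives, among them those without any of proestrus replicates 1 and 3, estrus replicates 4 and 5 and diestrus replicates 3 to 5. The fall from estrus to metestrus, -1.18 ± 0.23 (adjusted p = 0.00989), was not called without estrus replicate 5 (adjusted p = 0.05458) and with these stages fitted alone (adjusted p = 0.05568). Of the Spint2 counts, 85.0% were assigned to the coding transcript Spint2-202 and 14.8% to Spint2-203, annotated as a decay target with the same 3' end in all 470 stretches compared.

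Spint1 held 13.6, 17.1 and 9.57 CPM in proestrus replicates 1 to 3 and 25.8, 20.4 and 25.9 CPM in estrus replicates 3 to 5. Metestrus replicates 5 to 7 held 22.7, 10.7 and 42.0 CPM, and diestrus replicates 3 to 5 held 8.91, 5.89 and 13.5 CPM. Estrus lay above proestrus and diestrus without overlap, and metestrus ranged from below estrus to the highest value of all, in replicate 7. Over the 4 stages the adjusted p was 0.05455 (edgeR F test), and it fell under the threshold without metestrus replicate 6 (0.007318) or 7 (0.04411), with DESeq2 (0.02141) and with no filter on low counts (0.006332). Diestrus was 2.57-fold below estrus (log2 -1.36 ± 0.43, adjusted p = 0.03439), a call that was lost without any of estrus replicates 3 to 5 and diestrus replicates 3 and 4. Metestrus differed from estrus by 0.06 ± 0.39 (adjusted p = 0.9421), and by -0.48 without metestrus replicate 7 (adjusted p = 0.4543).

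Serpinb5 (ENSMUSG00000067006, chromosome 1, 106861173 to 106883348, plus strand) encodes maspin, an epithelial serpin that does not inhibit proteases in the classical way. Its upstream window is shown because its highest mean was in proestrus, a stage before that of Tmprss4, St14 and Spint2. It is 250 bases of RefSeq on GRCm38.p6, chr1:106860925-106861174, plus strand, 5' to 3', with the AP-1 match (TGAATCA) and the GC box in capitals.
Serpinb5: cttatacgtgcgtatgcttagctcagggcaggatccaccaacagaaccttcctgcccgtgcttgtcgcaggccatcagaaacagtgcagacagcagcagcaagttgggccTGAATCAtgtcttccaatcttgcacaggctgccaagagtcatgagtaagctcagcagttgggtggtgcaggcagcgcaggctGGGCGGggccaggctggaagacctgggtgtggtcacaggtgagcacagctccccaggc
Of the 4 motifs searched, the window holds 1 GC box and 1 AP-1 match, and its GC content is 58.8%. The windows of Tmprss2 and Serpina3n were searched as well and hold none of the 4 motifs.

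Serpinb5 was close to the detection limit outside proestrus and estrus. It passed the filter on low counts only through its proestrus libraries, the stage where it was highest, and its calls below carry that limit. The libraries held 13, 15 and 15 counts in proestrus replicates 1 to 3, 5, 8 and 9 in estrus replicates 3 to 5, 0, 2 and 1 in metestrus replicates 5 to 7, and 1, 0 and 0 in diestrus replicates 3 to 5. In CPM these were 7.36, 8.03 and 7.56 in proestrus and 3.07, 4.54 and 4.09 in estrus, and at most 1.25 in metestrus and 0.495 in diestrus. Proestrus and estrus did not overlap each other or the later stages, whose values all lay under the 3-count limit. The F test gave an adjusted p of 0.001046 (edgeR). Summed counts were 13.3 times higher in proestrus than in metestrus (95% exact interval for counting error 4.27 to 67.2; edgeR adjusted p = 0.0125) and 44.7 times higher than in diestrus (7.60 to 1805; adjusted p = 0.001591). Estrus exceeded diestrus 23.0-fold in summed counts (3.71 to 948; adjusted p = 0.004047). Estrus against metestrus (adjusted p = 0.04191) lost its call in 15 of 17 alternatives, among them each fit without 1 of the 12 libraries. The call against metestrus from proestrus was lost without proestrus replicate 2 (0.06267) or 3 (0.05443) and with these stages fitted alone. The difference of estrus from proestrus, -0.95 ± 0.48 on the log2 scale, did not pass (adjusted p = 0.2001). The squamous markers Krt5 and Trp63 were at 1.01 CPM or less in every library, and the squamous sum was 1.51 to 3.96 CPM in proestrus and 0 to 1.82 CPM in the other stages. Their part in the Serpinb5 values was not tested.

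Serpina3n (ENSMUSG00000021091, chromosome 12, 104406729 to 104414329, plus strand), a secreted inhibitor of chymotrypsin-like proteases, varied mostly between single samples. Proestrus replicates 1 to 3 held 1.70, 6.42 and 1.51 CPM, estrus replicates 3 to 5 8.60, 44.9 and 10.9 CPM, metestrus replicates 5 to 7 6.18, 9.40 and 68.1 CPM, and diestrus replicates 3 to 5 8.41, 10.3 and 2.25 CPM. All estrus samples lay above all proestrus samples, and estrus replicate 4 and metestrus replicate 7 stood far above the rest. No stage effect passed (edgeR F test, adjusted p = 0.08854), and it passed without metestrus replicate 5 (0.027) and with no filter on low counts (0.001715), but not without metestrus replicate 7 (0.0521). The difference of estrus from proestrus, 2.71 ± 1.02 on the log2 scale (adjusted p = 0.08618), was called without metestrus replicate 5 (0.04965) or 7 (0.02102). Serpina3n shares 21.6% of its 31-base stretches with other genes, among them Serpina3g, Serpina3f and Serpina3c, so reads could be split between copies and its level is uncertain.

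Plau (ENSMUSG00000021822, chromosome 14, 20836660 to 20843385, plus strand), which encodes urokinase, held nearly the same level in every stage. The 12 samples lay between 249 and 375 CPM: 319, 333 and 337 CPM in proestrus replicates 1 to 3, 321, 264 and 260 CPM in estrus replicates 3 to 5, 282, 375 and 325 CPM in metestrus replicates 5 to 7, and 327, 249 and 323 CPM in diestrus replicates 3 to 5. All stages overlapped. The F test did not pass (edgeR adjusted p = 0.5454), and the differences between stages lay between -0.23 and 0.22 on the log2 scale, each with an SE of 0.15.

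Plat (ENSMUSG00000031538, chromosome 8, 22757727 to 22782844, plus strand), which encodes the tissue-type activator, had its lowest means in proestrus and estrus. Proestrus replicates 1 to 3 held 46.4, 27.3 and 30.7 CPM and estrus replicates 3 to 5 31.9, 35.2 and 31.4 CPM. Metestrus replicates 5 to 7 held 151, 101 and 37.3 CPM, and diestrus replicates 3 to 5 held 97.0, 89.3 and 124 CPM. Diestrus lay above proestrus and estrus without overlap, and metestrus replicates 5 and 6 did too, while metestrus replicate 7 lay within the proestrus range. The F test gave an adjusted p of 0.005237 (edgeR), and 5.782e-05 without metestrus replicate 7. Diestrus was 3.14-fold above estrus (log2 1.65 ± 0.37, adjusted p = 0.006134), and proestrus lay below diestrus by a log2 difference of -1.57 ± 0.37 (adjusted p = 0.01688). That last call was lost without proestrus replicate 2 (0.08591), proestrus replicate 3 (0.07259) or diestrus replicate 5 (0.06188). Metestrus exceeded estrus by 1.56 ± 0.37 (edgeR adjusted p = 0.02287) and proestrus by 1.48 ± 0.37 (adjusted p = 0.03971), but the calls were lost in 8 and 14 of 20 alternatives. The former was lost without any of estrus replicates 3 to 5 and metestrus replicates 5 and 6, and the latter without any library but metestrus replicates 6 and 7. Without metestrus replicate 7 they were called, at 1.98 (adjusted p = 0.000577) and 1.88 (adjusted p = 0.003838).

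Diestrus against estrus was the comparison with the most calls, 6 of the 10 genes, of which 5 were lower in diestrus (Tmprss4, St14, Spint1, Spint2 and Serpinb5) and 1 higher (Plat). Over all genes 22.8% were called there, 13.0% lower and 9.73% higher in diestrus. The median log2 difference of the 10 genes was -1.47, against 0.00 over all genes tested. Without metestrus replicate 7 the fit called 7 of the 10, with Tmprss2 added.

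From proestrus to estrus 3 of the 10 genes rose, Tmprss4, St14 and Spint2, and none fell, where 17.1% of all genes were called, 9.67% higher and 7.46% lower in estrus. That count was 1 without any of proestrus replicates 1 and 3, estrus replicates 4 and 5 and diestrus replicate 3. From estrus to metestrus 4 fell (Tmprss4, St14, Spint2 and Serpinb5) and Plat rose, against 7.56% of all genes called, 4.73% lower and 2.83% higher. It was 3 in all without any of estrus replicates 3 and 4 and metestrus replicates 5 and 6, and 2 without estrus replicate 5. The median of the 10 genes was 0.48 in the former comparison and -0.17 in the latter, against 0.02 and 0.01 over all genes.

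Between metestrus and diestrus 1 of the 10 genes was called, Tmprss4, which was lower in diestrus, and 0.224% of all genes were called, 0.0913% lower and 0.133% higher. Without metestrus replicate 6 the count was 3, and without any of diestrus replicates 3 to 5 it was 0 (5 at an unadjusted p under 0.05 with all libraries). Proestrus exceeded diestrus in 4 genes (Tmprss4, St14, Spint2 and Serpinb5) and lay below it in Plat, against 8.53% of all genes called, 4.62% higher and 3.91% lower in proestrus. Metestrus lay below proestrus in Tmprss4 and Serpinb5 and above it in Plat, against 4.31% of all genes called, 1.82% lower and 2.49% higher. That count was 0 without proestrus replicate 2, 1 without proestrus replicate 3 and 5 without metestrus replicate 6. The medians of the 10 genes in these 3 comparisons were -0.74, 0.57 and -0.16, against -0.02, 0.00 and 0.02 over all genes. The 6 comparisons share samples and are not independent of each other.

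**Figure D2:**
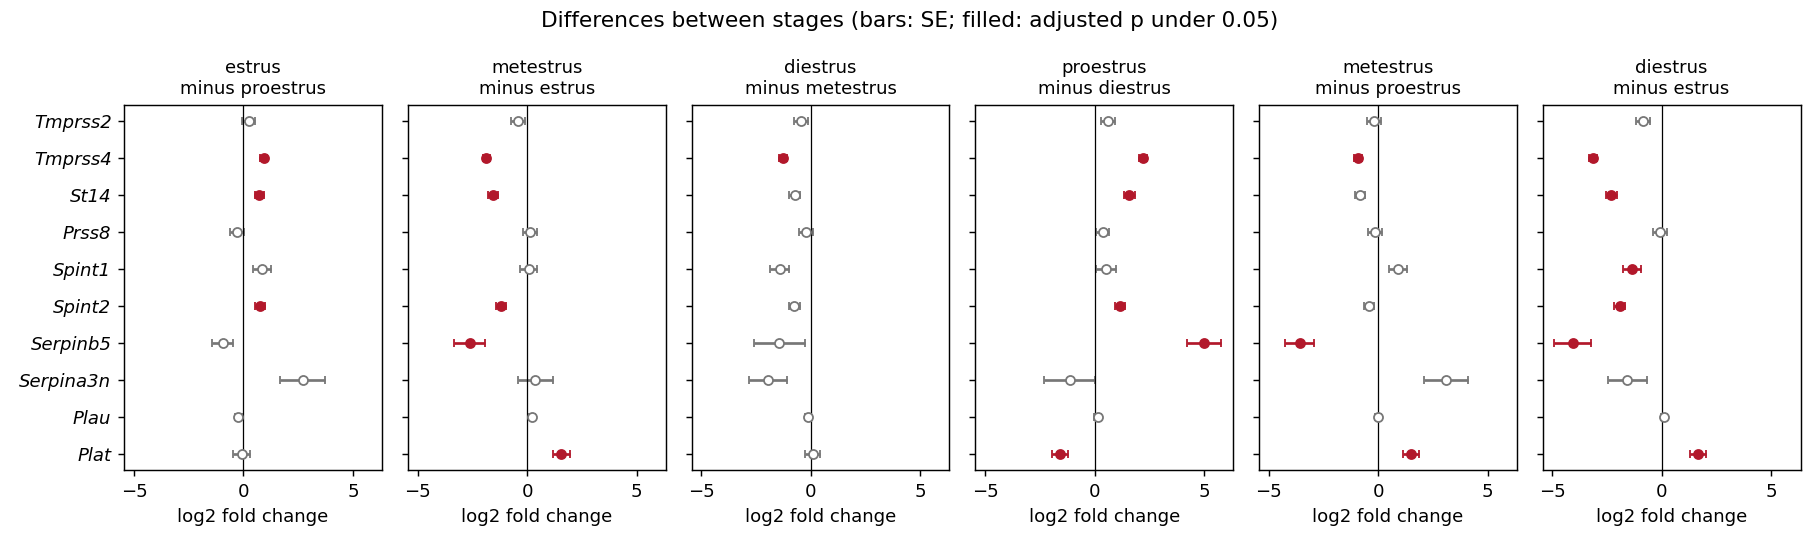
Log2 fold change (horizontal axis) of the 10 genes in the 6 comparisons of stages, with bars for the SE; filled points have an adjusted p under 0.05 in edgeR's quasi-likelihood test. Tmprss4 is filled in all 6 panels, and diestrus minus estrus has the most filled points, 6; the Serpinb5 values against metestrus and diestrus rest on 3 counts and 1 count and depend on the fit.

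The epithelial markers changed over the cycle too, so the genes were also set against them within each sample. The summed level of the 12 markers was 2043, 2681 and 2019 CPM in proestrus replicates 1 to 3, 1941, 2238 and 2369 CPM in estrus replicates 3 to 5, 1373, 1064 and 744 CPM in metestrus replicates 5 to 7, and 784, 758 and 923 CPM in diestrus replicates 3 to 5. Proestrus and estrus overlapped each other and lay above all metestrus and diestrus samples. All 12 markers were called in the F test, and 11 of 12 were lower in diestrus than in estrus, with a median log2 difference of -1.34. They did not all move together: 9 were higher and 2 lower in proestrus than in diestrus, and 5 were lower and 1 higher in metestrus than in proestrus. The gland markers Foxa2 and Cxcl15 were lower in proestrus than in diestrus. The sum is therefore no uniform measure of the epithelium. From proestrus to estrus 3 of 12 rose (Cldn3, Cldn4 and Ehf), with a median of 0.13, while Tmprss4, St14 and Spint2 rose by 0.94, 0.73 and 0.76.

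Relative to the marker sum (log2 of CPM + 1 minus log2 of the sum), Tmprss4 measured -5.27, -5.48 and -5.37 in proestrus replicates 1 to 3, -4.26, -4.59 and -4.40 in estrus replicates 3 to 5, -5.71, -5.46 and -4.37 in metestrus replicates 5 to 7, and -5.99, -6.01 and -6.11 in diestrus replicates 3 to 5. Estrus stayed above proestrus and diestrus, and diestrus below all others, while metestrus replicate 7 fell within the estrus range. The stages differed (exact permutation test of the one-way F statistic over 15400 partitions, p = 0.007338, adjusted over the 10 genes 0.02446), and the call was lost in 9 of 16 alternatives. Plat measured -6.00 ± 0.57 in proestrus, -6.01 ± 0.16 in estrus, -3.61 ± 0.59 in metestrus and -2.99 ± 0.09 in diestrus (SD, n = 3; adjusted exact p = 0.01429), with every metestrus and diestrus sample above every proestrus and estrus sample. Plau, which did not pass the F test on its own level, measured -2.75 ± 0.22, -2.95 ± 0.31, -1.66 ± 0.56 and -1.46 ± 0.18 in the order of the cycle (adjusted exact p = 0.02446), and lost the call in 5 of 16 alternatives. The Plau level itself was nearly the same in every stage, so this ratio follows the fall of the marker sum and shows no change in Plau.

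The other 7 genes did not pass relative to the markers. Adjusted exact permutation p-values were 0.05091 for Spint1 and Serpinb5, 0.05465 for Spint2, 0.07811 for Prss8, 0.09668 for St14 and Serpina3n and 0.2762 for Tmprss2. In St14 and Spint2 all estrus samples still exceeded all proestrus samples and all diestrus samples, with means of -4.64 ± 0.08 in estrus against -5.40 ± 0.12 and -5.49 ± 0.18 for St14 (SD, n = 3), and -2.61 ± 0.16 against -3.40 ± 0.16 and -3.09 ± 0.08 for Spint2. Metestrus spread widely in most panels, and the count of genes called was 9 without metestrus replicate 7 and 8 without metestrus replicate 6. It was 4 without metestrus replicate 5, 2 without estrus replicate 3 or any diestrus sample, and 1, Plat, without any of proestrus replicates 1 to 3 and estrus replicates 4 and 5.

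**Figure D3:**
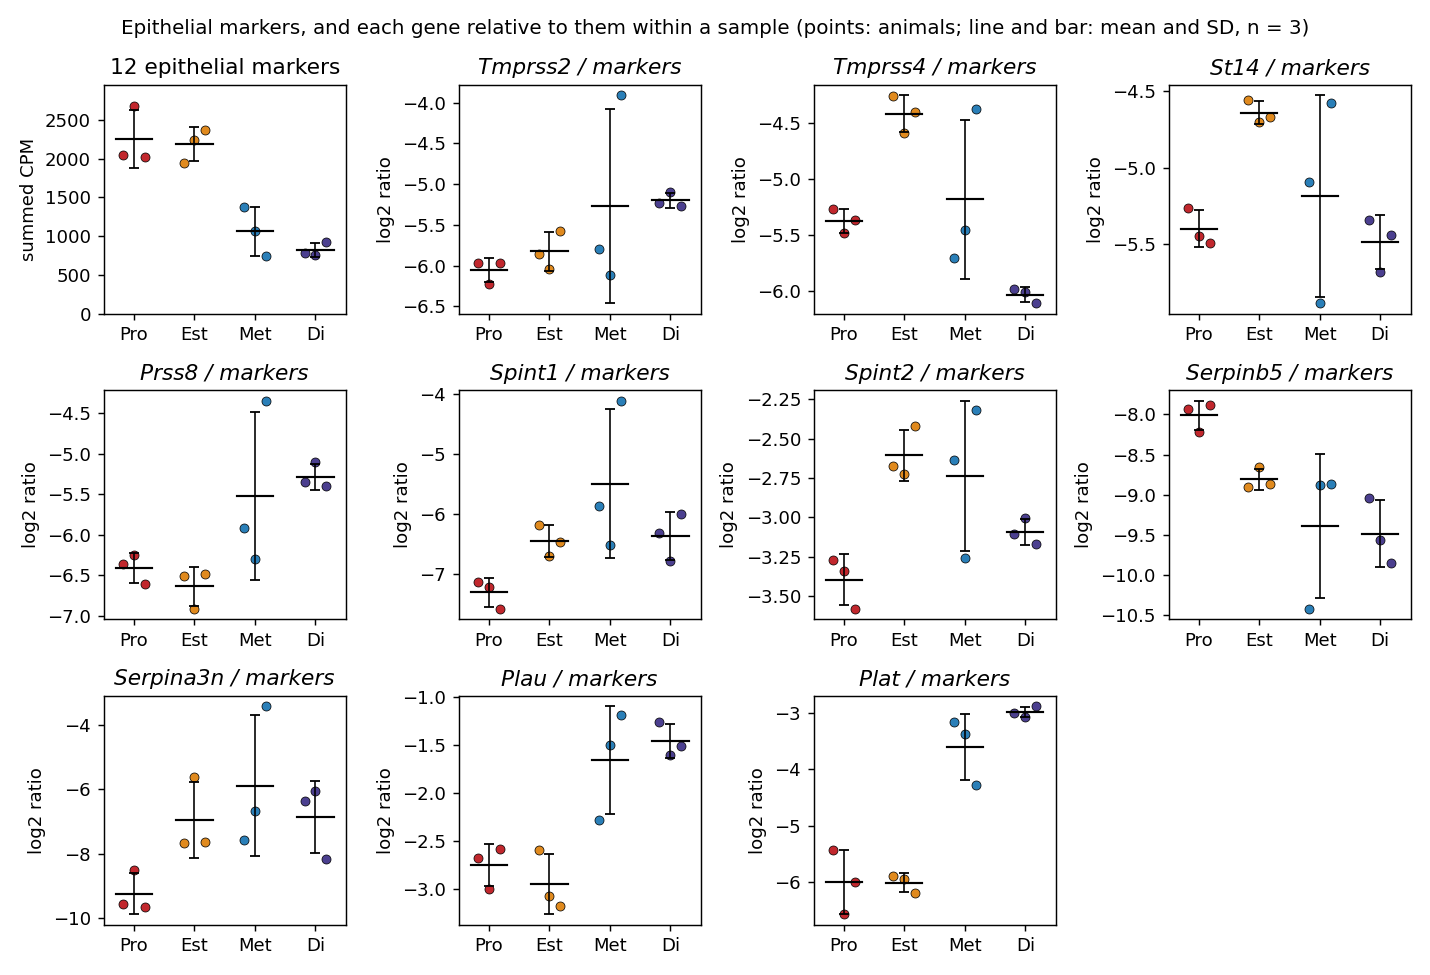
Summed CPM of the 12 epithelial markers (upper left panel, linear from 0) and log2 ratio of each of the 10 genes to that sum, by stage. Points are samples (animals in the title, though the labels do not say whether uteri were pooled), and line and bar the mean and SD of 3. The marker sum lies between 1941 and 2681 CPM in proestrus and estrus and between 744 and 1373 CPM in metestrus and diestrus, and the Plat ratio rises from a mean of -6.01 in estrus to -2.99 in diestrus.

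Other cell types also varied. The macrophage marker sum was 532 to 586 CPM in estrus and 202 to 252 CPM in proestrus, with 5 of 5 markers higher in estrus, and the smooth muscle sum was 8170 to 10515 CPM in estrus and 5164 to 8708 CPM elsewhere. The ciliated oviduct sum was 46.6 to 56.5 CPM in estrus and 9.82 to 33.2 CPM elsewhere. Its 1 tested marker, Ovgp1, was called higher in estrus than in proestrus (log2 difference 1.61). Ranges over all libraries were 6921 to 15152 CPM for stromal fibroblast markers, 1244 to 2020 CPM for endothelial, 10.7 to 88.0 CPM for neutrophil and at most 26.3 CPM for ovary markers. In metestrus replicate 7, where Spint1, Serpina3n and Prss8 had their highest values and Plat its lowest of that stage, Prss28 and Prss29 were high, the other gland markers summed to 37.3 CPM and the epithelial sum was the lowest of all, 744 CPM. The part of these cell types in the results was not tested.

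The balance of enzyme and inhibitor transcripts within a sample was compared over the stages as a log2 difference, which says nothing about the amounts of protein. Of 6 pairs computed, the 4 of a membrane-anchored protease and a Kunitz-type inhibitor are described, and the stages differed in each (exact permutation test of the one-way F statistic, Benjamini-Hochberg over the 6 pairs). St14 to Spint1 measured 1.86, 1.76 and 2.08 in proestrus replicates 1 to 3, 1.62, 2.00 and 1.79 in estrus replicates 3 to 5, 0.76, 0.62 and -0.46 in metestrus replicates 5 to 7, and 0.96, 1.09 and 0.55 in diestrus replicates 3 to 5. Proestrus and estrus overlapped and lay above all metestrus and diestrus samples (adjusted exact p = 0.007273, and 0.008052 without metestrus replicate 7). St14 to Spint2 had a narrower range, with means of -2.03 ± 0.19 in estrus, -2.45 ± 0.19 in metestrus and -2.39 ± 0.25 in diestrus and proestrus values of -1.91 to -2.11 (SD, n = 3; adjusted exact p = 0.04429), and that call was lost in 8 of 14 alternatives.

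Prss8 to Spint2 was lowest in estrus, at -3.83, -4.18 and -4.06, against -3.09, -2.91 and -3.03 in proestrus, -3.29, -3.03 and -2.03 in metestrus and -2.23, -2.10 and -2.23 in diestrus, each in the order of the replicate numbers (adjusted exact p = 0.007273, and 0.001558 without metestrus replicate 7). All estrus samples lay below all others. Prss8 to Spint1 averaged 0.89 ± 0.11 in proestrus, -0.19 ± 0.15 in estrus, -0.03 ± 0.23 in metestrus and 1.07 ± 0.55 in diestrus (SD, n = 3; adjusted exact p = 0.007305), so that estrus and metestrus, which overlapped, lay below the other stages. The level of Prss8 itself was not called over the stages (edgeR F test, adjusted p = 0.7612), while that of Spint2 was (0.0005735). The Prss8 ratios therefore show no change in Prss8.

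**Figure D4:**
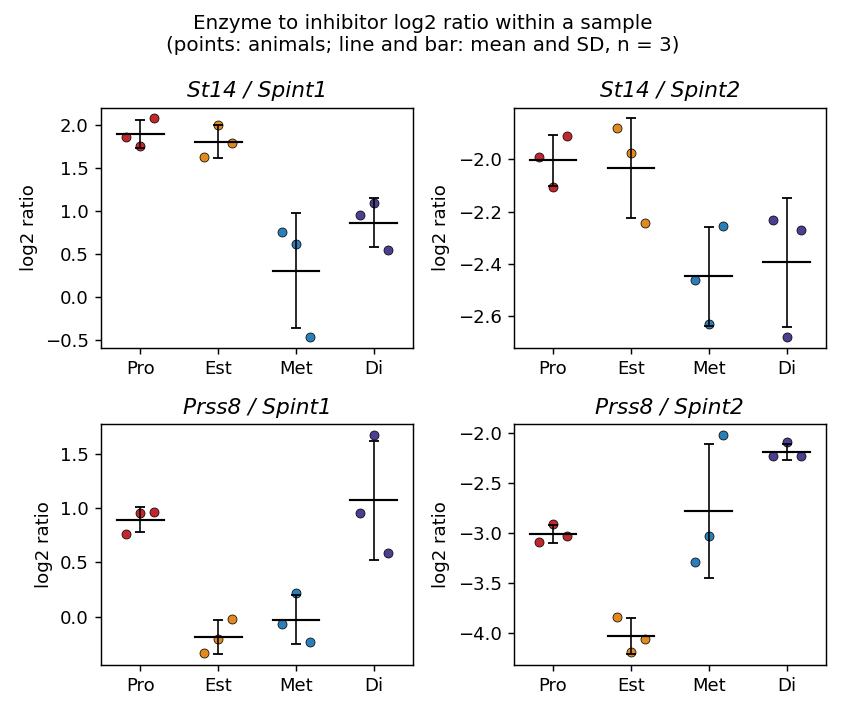
Log2 ratio of enzyme to inhibitor transcripts within a sample (vertical axis, own scale per panel) for 4 pairs, by stage. Points are samples (animals in the title, though the labels do not say whether uteri were pooled), and line and bar the mean and SD of 3. St14 to Spint1 is lower in metestrus and diestrus, where no sample exceeds 1.09, and Prss8 to Spint2 is lowest in estrus, at -3.83 or less.

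For the 5 genes that differed over the stages, the genes with the most similar profile were taken by Pearson's r of log2 CPM over the 12 samples, which share the stage means, as a description only. Tmprss4 was closest to Klf3 (r = 0.976), Eps8 (0.973) and Ptp4a2 (0.973), and St14 to Acer3 (0.988), Cblc (0.983) and Klf3 (0.979). Spint2 was closest to Cxcl17 (0.988), Aoc1 (0.983) and Smpdl3a (0.972). Serpinb5 was closest to Mfsd4a (0.962), Galnt12 (0.951) and Mall (0.949), and Plat to Tnc (0.934), Serpine2 (0.927) and Cd63 (0.925).

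The wider protease system was described with 6 lists of related genes, of which 51 genes were tested. These lists too were chosen with earlier results of these data known. A difference over the stages was called for 26 of the 51, against 23.2% of all genes. Of the other membrane-anchored proteases 1 of 4 tested was called, of the secreted serine proteases 4 of 5, of the genes of plasminogen activation and its control 6 of 13, of the other serpins 4 of 10, of the Kunitz, Kazal and WAP inhibitors 5 of 8, and of the substrates and receptors 6 of 11. Most of the 19 listed membrane proteases with an entry in the annotation were too low to be tested. Between diestrus and estrus 22 of the 51 were called, beside 22.8% of all genes. The membrane proteases had 1 lower in diestrus, the secreted proteases 4 lower (median log2 difference of the list -1.50), the plasminogen genes 2 higher and 2 lower (0.01), the serpins 1 higher and 3 lower (-0.55), the small inhibitors 2 higher and 3 lower (-0.28) and the substrates and receptors 4 lower (-0.37). From proestrus to estrus 17 of the 51 were called, beside 17.1% of all genes, with 1 serpin lower (Serpinh1) and the other 16 higher in estrus. That count was 8 without proestrus replicate 3, 9 without estrus replicate 5, 10 without proestrus replicate 1 and 11 without estrus replicate 4, while the calls over all genes went from 2064 to 1100, 1233, 1227 and 1214.

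Among proteases, Tmprss11d, a membrane protease of squamous and airway epithelium, fell from 18.9 ± 10.8 CPM in estrus to 2.09 ± 0.78 in metestrus and 0.51 ± 0.49 in diestrus, after 15.2 ± 8.78 in proestrus (SD, n = 3; edgeR F test, adjusted p = 0.0006828). Its summed counts were 35.9 times higher in estrus than in diestrus, with a 95% exact interval of 11.9 to 177. Hgfac encodes an activator of the hepatocyte growth factor precursor, which matriptase cleaves too. It rose from 36.8 ± 13.6 CPM in proestrus to 82.0 ± 9.13 in estrus and fell to 8.77 ± 6.23 in metestrus and 1.55 ± 0.12 in diestrus (adjusted p = 1.269e-05). Every stage but the last was above 3 counts in each library, and no estrus sample overlapped another stage.

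Htra3 and Htra1, secreted proteases of the HtrA family, and Prss23 were also called. Htra3 rose from 47.8 ± 2.28 CPM in proestrus to 165 ± 25.3 in estrus, and averaged 116 ± 55.3 in metestrus and then 69.4 ± 12.7 CPM (SD, n = 3; edgeR adjusted p = 0.001326). Htra1 measured 147 ± 8.41, 153 ± 5.48, 103 ± 45.5 and 69.5 ± 16.6 CPM (adjusted p = 0.02367), a call lost in 6 of 19 alternatives. Prss23 measured 360 ± 64.0, 411 ± 56.7, 275 ± 102 and 145 ± 51.3 CPM (adjusted p = 0.008746). Its antisense partner Prss23os, which covers 22.9% of its exon bases, was not analysed here, and the level of Prss23 is uncertain for that reason.

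In plasminogen activation, Serpine2, which encodes protease nexin-1, an inhibitor of thrombin and the plasminogen activators, was higher in the later stages. It averaged 43.6 ± 17.9 CPM in proestrus, 37.4 ± 5.05 in estrus, 99.2 ± 27.4 in metestrus and 136 ± 28.7 in diestrus (SD, n = 3; edgeR F test, adjusted p = 0.0006554). S100a10, a plasminogen receptor subunit, had its lowest mean in estrus, 162 ± 16.4 CPM, and its highest in diestrus, 371 ± 41.7 CPM (adjusted p = 0.01245). F3, tissue factor, averaged 55.2, 117, 92.2 and 46.9 CPM from proestrus to diestrus (adjusted p = 0.0357), and lost its call in 9 of 19 alternatives.

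Among the other serpins, Serpina9 was high in proestrus and estrus (19.4 ± 1.27 and 20.3 ± 3.03 CPM) and lower in metestrus and diestrus (6.09 ± 6.03 and 3.66 ± 1.92 CPM; SD, n = 3; edgeR adjusted p = 0.008852). Serpinh1, a collagen chaperone of the endoplasmic reticulum without inhibitory function, was lowest in estrus, at 215 ± 32.1 CPM, against 503 ± 76.5 in proestrus, 394 ± 128 in metestrus and 487 ± 40.6 in diestrus (adjusted p = 0.004678). The intracellular serpins Serpinb6b and Serpinb6a had their highest means in estrus, 27.5 ± 0.62 and 192 ± 30.6 CPM (adjusted p = 0.0364 and 0.02071). Their calls were lost in 8 of 18 and 4 of 19 alternatives, and both share sequence with other genes, 6.83% and 19.6% of 31-base stretches, which makes their levels uncertain.

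The small secreted inhibitors split by stage. Slpi, an inhibitor of neutrophil elastase, held 3.96, 1.07 and 6.05 CPM in proestrus replicates 1 to 3 and 15.4, 32.9 and 36.8 CPM in estrus replicates 3 to 5, with metestrus and diestrus between 4.42 and 11.9 CPM (edgeR F test, adjusted p = 0.002385). All its estrus samples lay above all others. Wfdc1, a WAP-domain protein, averaged 27.0, 20.6 and 56.4 CPM in proestrus, estrus and metestrus and 165 ± 17.8 CPM in diestrus (adjusted p = 1.105e-05), where every sample exceeded every other. Spink8, a Kazal-type gene, had 0 counts in proestrus, 1 count in estrus and 9.76 ± 7.73 CPM in diestrus, at least 6.04-fold above proestrus at 3 counts per library (adjusted p = 0.008467, not called with limma-voom at 0.06018). Wfdc18 reached 6.75, 82.9 and 24.6 CPM in estrus replicates 3 to 5 and 24.2 CPM in metestrus replicate 5, with 2.68 CPM at most elsewhere (adjusted p = 0.008971), and its call was lost without estrus replicate 4 (0.06322) and with limma-voom (0.2763). Spink8 passed the filter on low counts only through libraries of metestrus and diestrus, where it was high. Wfdc18 passed it only through its estrus libraries and metestrus replicate 5, where it was high. The calls of both genes carry that limit.

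Of the substrates and receptors, Met, the receptor of hepatocyte growth factor, held 18.1, 27.8 and 21.2 CPM in proestrus replicates 1 to 3 and 52.2, 41.4 and 55.0 CPM in estrus replicates 3 to 5. It then held 21.1, 16.9 and 21.9 CPM in metestrus replicates 5 to 7 and 8.91, 6.87 and 11.8 CPM in diestrus replicates 3 to 5. Estrus lay above and diestrus below all other samples, as for Tmprss4 and Spint2 (edgeR F test, adjusted p = 0.0001071). Scnn1b, a subunit of the epithelial sodium channel, was under 3 counts in each proestrus library and averaged 25.6 ± 7.32 CPM in estrus, where every sample exceeded every other (adjusted p of the rise 0.001706), and its F test was not passed with limma-voom (0.05459). F2r, the thrombin receptor PAR1, averaged 4.45, 13.5, 22.7 and 23.2 CPM in the same order (adjusted p = 0.004888).

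**Figure D5:**
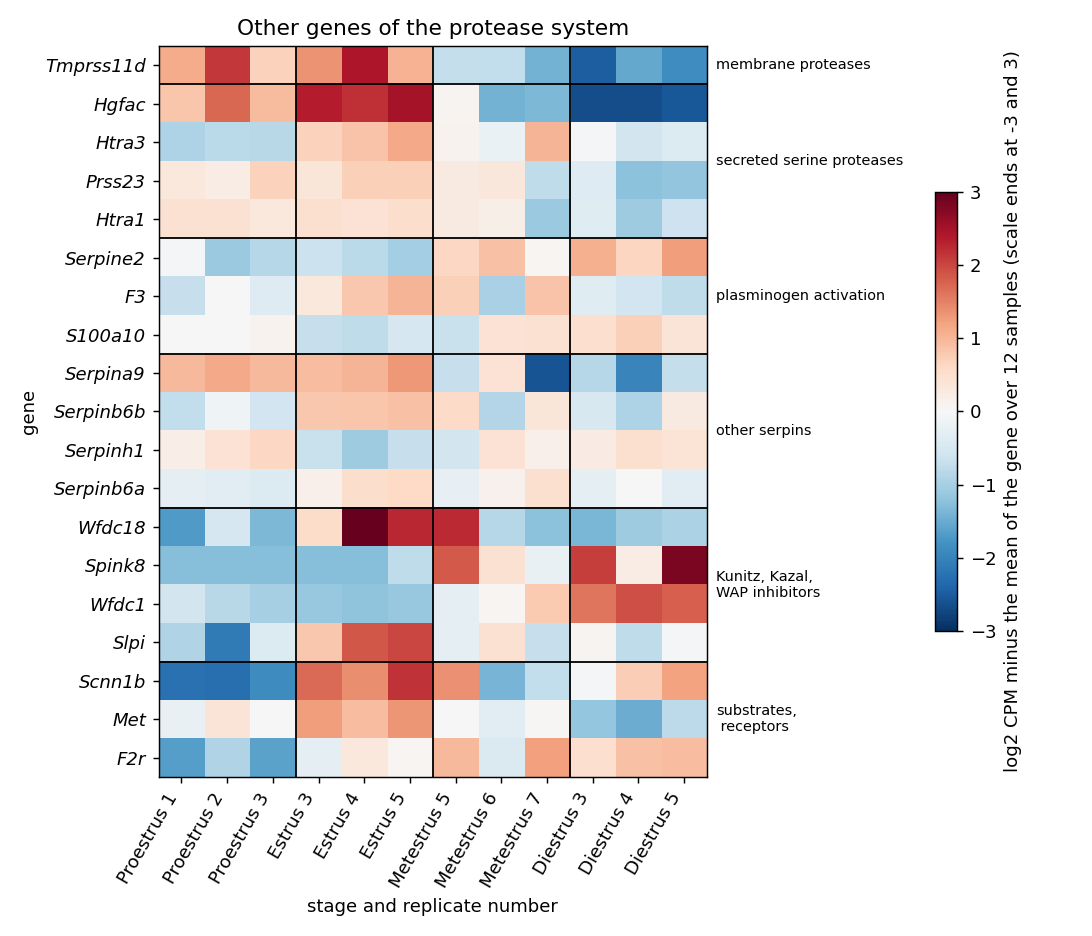
Log2 CPM minus the mean of each gene over the 12 samples (colour scale, ends at -3 and 3) for 19 genes of the 6 lists that were called over the stages (rows, grouped by list) in the 12 samples (columns, by stage and replicate number). Hgfac and Met are highest in estrus and lowest in diestrus, and Serpine2 and Wfdc1 have their highest means in diestrus.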

How the data were processed

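The authors deposited 1 table per sample with estimated counts, TPM values and effective lengths per transcript, per the file headers. The deposited estimated counts were not scaled, and the deposited TPM are by definition relative to effective length and library total. The deposited length columns hold other values, the length and effective length in bases, as the authors' program gave them. The submitters' processing notes name kallisto (0450 as printed), DESeq2 (1181 as printed) and FastQC without roles; transcript set, build, options and use of strand are not given in the sources used here. Without strand, antisense genes cannot be told apart.

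Transcripts were matched to GENCODE M21 (GRCm38), 116640 of 119414 (97.7%); the others held 0.619% to 0.774% of a sample's counts and were left out. Counts were summed per gene and rounded. Genes were filtered with filterByExpr by stage, libraries scaled with TMM (factors 0.907 to 1.05), and 12 samples fitted together in edgeR 4.0.16 (R 4.3.3) with stage as the only term (biological coefficient of variation 20.6%), giving an F test and 6 contrasts, each adjusted by Benjamini-Hochberg over 12052 genes. Log2 CPM used a prior count of 2. PCR copies could not be removed, so intervals cover counting error only. Gene libraries held 1641185 to 2184941 counts.

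Ratios were tested by exact permutation of the one-way F statistic over 15400 partitions of the samples, whose smallest p is 6.49e-05; 3 samples against 3 cannot go below 0.10, so single pairs of stages were not tested that way. Alternatives were library totals, RLE factors, DESeq2 1.42.0, limma-voom (limma 3.58.1), no filter, a minimum mean of 50 counts, counts scaled from TPM, each sample left out, stages fitted alone and other pseudocounts or marker sums. The fits were tested on simulated data.

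The members and all gene lists were chosen with earlier results of these data known. All 10 members are named; of each pathway list up to 4 genes called in the F test with the widest range of stage means of log2 CPM, and for each member called there the 3 genes with the highest Pearson's r. Some results that this rule names are not reported here. Promoter windows of 250 bases were matched by symbol in RefSeq's table (GRCm38.p6) for 5 of the 10, Tmprss2, Spint1, Spint2, Serpinb5 and Serpina3n, and not for Tmprss4, St14, Prss8, Plau and Plat; motifs were searched on both strands. Tmprss11bnl and Spink3 had no match in the annotation.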

Additional observations from a re-analysis of the deposited data

How the results depend on the processing

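No difference that passed the test changed its sign under any alternative tried. Of the differences that did not pass, 22 values over 12 differences changed sign, and none passed after it. With limma-voom the difference of metestrus from estrus became -0.12 for Spint1 and -0.049 for Serpina3n on the log2 scale, and with counts scaled from TPM -0.048 for Spint1. Metestrus minus proestrus of Plau became 0.0089 with a minimum mean of 50 counts and 0.0050 with these stages alone. With a library left out, estrus minus proestrus ranged from -0.0057 to 0.33 for Tmprss2 and from -0.23 to 0.17 for Plat. Metestrus minus estrus ranged from -0.27 to 0.44 for Prss8, from -0.48 to 0.44 for Spint1 and from -1.44 to 1.52 for Serpina3n, each lowest without metestrus replicate 7. Diestrus minus metestrus ranged from -0.75 to 0.14 for Tmprss2, from -0.50 to 0.21 for Prss8 and from -0.30 to 0.58 for Plat. Metestrus minus proestrus ranged from -0.75 to 0.14 for Tmprss2, from -0.57 to 0.14 for Prss8 and from -0.12 to 0.085 for Plau, and diestrus minus estrus from -0.16 to 0.092 for Prss8.

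Between stages, the number of the 10 genes called from proestrus to estrus was 3, and 1 with library totals, 1 with counts scaled from TPM, 5 with these stages fitted alone and 1 to 4 with a library left out. From estrus to metestrus it was 5, and 3 with limma-voom, 3 with counts scaled from TPM, 2 with the stages alone and 2 to 5 with a library left out (2 without estrus replicate 5). Between metestrus and diestrus it was 1, and 0 with limma-voom, 0 with counts scaled from TPM, 0 with the stages alone, 2 without the filter and 0 to 3 with a library left out (0 without any of diestrus replicates 3 to 5, 3 without metestrus replicate 6). At an unadjusted p under 0.05 edgeR called 5 there. For metestrus against proestrus it was 3, and 5 without the filter, 1 with counts scaled from TPM, 0 with the stages alone and 0 to 5 with a library left out (0 without proestrus replicate 2, 5 without metestrus replicate 6, 6 at an unadjusted p under 0.05). Counts over the 4 stages (5, range 5 to 7), for proestrus against diestrus (5, range 4 to 5), for diestrus against estrus (6, range 5 to 7), of the 6 ratios (6, range 5 to 6) and of epithelial markers (12, range 11 to 12) stayed within 1.5 times. Pathway genes called over the stages numbered 26, 16 with a minimum mean of 50 counts, which left Spint1, Prss8, Serpina3n and Serpinb5 untested too, and 21 to 34 with a library left out. Relative to epithelial markers 3 genes were called, and 1 to 9 with a library left out. The cause of these changes was not tested. Among all genes, the 27 calls between metestrus and diestrus became 0 to 256, the 2064 from proestrus to estrus 1100 without proestrus replicate 3, and the 2793 over the stages 1674 with counts scaled from TPM and 1844 with a minimum mean of 50 counts.

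Estrus and diestrus share replicate numbers 3 to 5, but the deviations of same-numbered samples did not correlate (r = -0.0433, 0.0131 and -0.0166). Such values cannot exclude a shared batch or day, which the labels do not give. With the number as a replicate block and these stages alone, 7 of the 10 genes were called for diestrus against estrus, against 6 in the fit of all 12 samples. Tmprss2 (edgeR adjusted p = 0.01187) and Serpina3n (0.02745) were added, and Serpinb5 was too low to be tested there.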

Other observations

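The implantation serine proteinases Prss28 and Prss29, which are secreted by uterine glands, were high in 1 sample. Metestrus replicate 7 held 76.9 CPM of Prss28 and 295 CPM of Prss29, while the other 11 libraries held at most 0.515 and 2.46 CPM. Both genes failed the filter on low counts and were singled out after their values were seen, so they carry no test. In the same sample Spint1 (42.0 CPM), Serpina3n (68.1 CPM) and Prss8 (35.5 CPM) reached their highest values of the 12 samples, while Serpina9 (0.59 CPM) and Htra1 (50.3 CPM) were at their lowest.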
